A study of Solanum lycopersicum with 12 samples.

Results

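Transcript levels were compared between stems of unclamped tomato plants (Solanum lycopersicum, cultivar Ailsa Craig) cut at a later and at an earlier collection of the same study. The later stems, 10 day controls, were cut 10 days after the end of a 48 h treatment given to other plants. The earlier stems, 6 h controls, were cut 6 h after that treatment began according to the series' design text, and 6 h post treatment according to the labels. Neither group carried a clamp. These 6 libraries, 3 biological replicates per group, are 6 of the 12 in the series. The other 6 libraries came from weighted plants, labelled DSM, which bore a 3 g wooden clamp at the stem top for 48 h and were cut at the same times, 3 at each. All plants grew singly in 0.5 l greenhouse pots under 16 h of light and 8 h of dark at about 28 °C. The stems that received the clamp were 4.5 to 5 cm tall. No source used here gives the age of the plants, the part of the stem cut or the hour of cutting, so the comparison is one of collection time. The labels enter that time under the tag "batch", and the time and any difference in handling between the collections cannot be told apart.

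Gene values were FPKM, read fragments scaled to the length of the transcript and to the size of the library. The authors deposited them for 6120 genes, 5346 in a table for the 6 h collection and 1146 in a table for the 10 day collection, with 372 in both. These genes are a selection: in the authors' deposited tables the Q value for weighted against control stems was under 0.05 for 3020 of the 3020 genes with a legible value at 6 h, and for 908 of 909 at 10 days. The control libraries compared here took part in that selection, so counts below describe the deposited genes and not the whole transcriptome. Of the 6120 genes, 5730 reached 1 FPKM in at least 3 of the 6 control libraries and were tested. The tables give no counts, so the depth behind each value is unknown.

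In a growing stem, young cells divide and lengthen behind the tip, with thin walls that enzymes such as expansins and xyloglucan endotransglucosylases loosen and rejoin. Older tissue lays down secondary walls of cellulose, xylan and lignin in the wood and fibres. Abscisic acid, a hormone of water shortage and maturing tissue, binds PYL receptors that block protein phosphatases of type 2C and so turns on genes of protective proteins such as dehydrins. Small heat shock proteins hold other proteins in solution when they begin to unfold.

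The 10 day libraries resembled each other less than the 6 h libraries did. Pearson's r between libraries, on log2(FPKM + 1) across genes, was 0.948 to 0.982 among the 10 day controls, 0.984 to 0.991 among the 6 h controls, and 0.759 to 0.809 between the groups. In a principal component analysis 87.4% of the variance lay on the axis that separates the collections. The next axis, with 8.08%, and set 10 day replicate 1 (28.8) apart from 10 day replicate 2 (-25.3), and the other 4 libraries lay between -2.98 and 2.61. At 10 days, 111 genes in replicate 1 and 93 in replicate 2 were at least 2 times above both other replicates, against 4 in replicate 3. Summed FPKM over the deposited genes was 465825 to 476604 in 10 day control stems and 423093 to 443868 in 6 h control stems, and the 10 highest genes of a library held 14.5% to 16.3% and 9.48% to 11.4% of it.

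Of the 5730 genes tested, 1698 were higher (29.6%) and 2137 were lower (37.3%) in 10 day control stems than in 6 h control stems, 66.9% in all. The test was limma on log2(FPKM + 1) with a Benjamini-Hochberg adjusted p under 0.05 over all genes tested, and every statement below that a gene rose or fell rests on it. Of the tested genes of the 6 h collection's table, 27.7% were called higher and 38.8% lower, 66.5% in all, and of those listed for 10 days, 40.0% were higher and 29.8% lower, 69.8% in all. Differences are in log2 units, 10 day minus 6 h, and ± gives the SD of 3 libraries. A difference of at least 1 was reached by 881 genes that rose (15.4%) and 1119 that fell (19.5%). The 3 libraries of each group did not overlap for 4203 genes (73.4%). The median difference over all genes tested was -0.13. It was -0.25 with library totals made equal and between -0.02 and -0.01 with median ratio or quantile scaling, so small differences depend on the scaling. The same comparison in weighted stems, given beside some results, called 78.6% of 5797 genes, 34.8% higher and 43.8% lower. An exact permutation test of 3 libraries against 3 cannot go below p = 0.1, and none was used. Gene lists are given by the members tested and, where some missed the 1 FPKM filter, by the members deposited. In bulk tissue, fewer cells of a type and less RNA per cell cannot be told apart.

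Gene groups went in different directions. Small heat shock proteins, raffinose synthesis, clock genes, NAC factors and laccases had more members called higher than lower. Tubulins and kinesins, cell cycle genes, xyloglucan endotransglucosylases, pectin enzymes, receptor kinases and nitrogen assimilation had more called lower. The counts stand below beside the 29.6% and 37.3% of all genes tested, and the plot of calls per gene list shows them together.

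**Figure D1:**
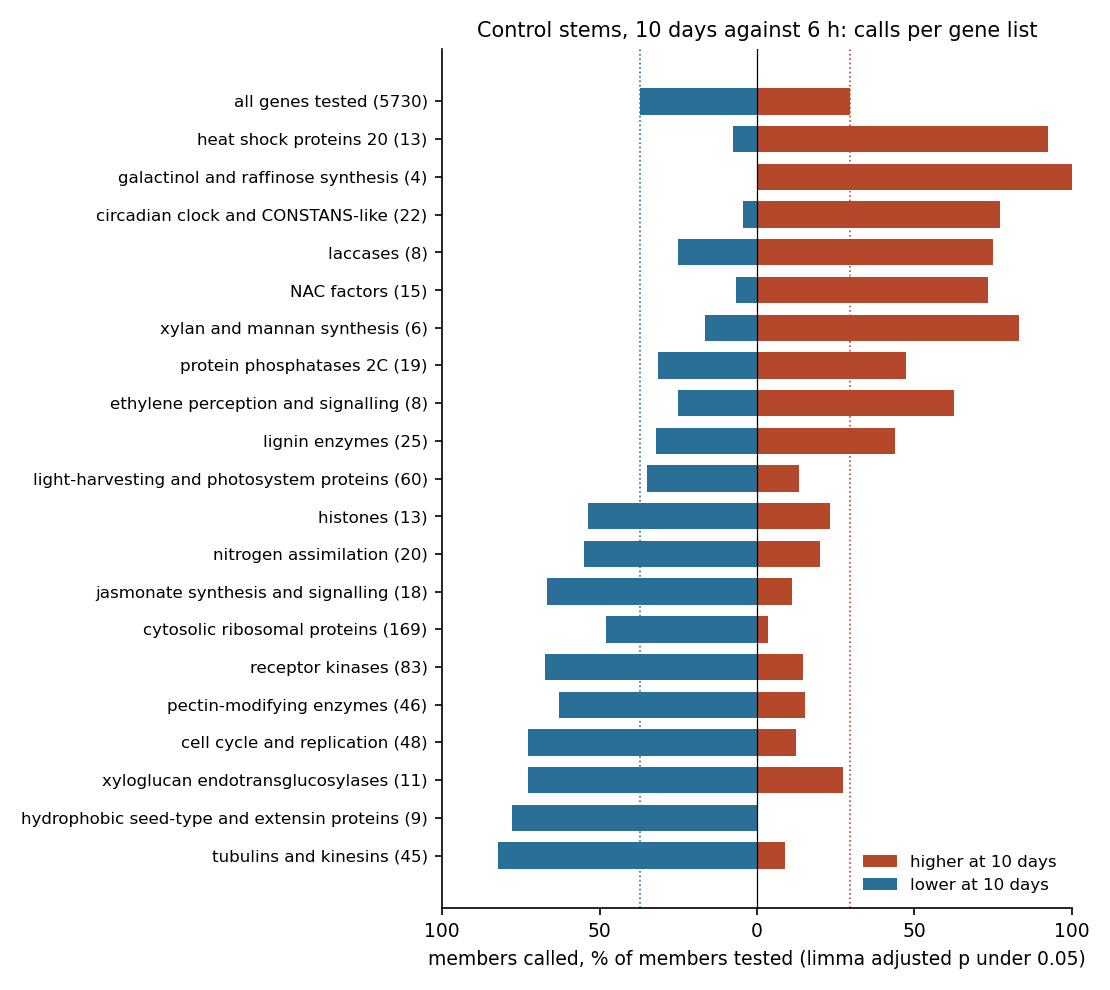
Share of the tested members of each gene list called higher (right, red) or lower (left, blue) in 10 day than in 6 h control stems, in percent of members tested (limma adjusted p under 0.05); the number tested is in brackets and dotted lines mark the shares over all 5730 genes. Of 13 small heat shock proteins 12 were called higher, while 37 of 45 tubulin and kinesin genes were called lower.

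The largest increase of all was in a dehydrin. TAS14 (Solyc02g084850.3), a tomato dehydrin known to be induced by abscisic acid and salt, had 10528, 10635 and 11136 FPKM in 10 day control stems, against 18.5, 15.7 and 11.7 FPKM in 6 h control stems. The later libraries lay close together and far above the earlier ones, and the gene was among the 5 of highest mean level in the data. Its difference was 9.39 (SE 0.17, limma adjusted p = 2.2e-06), a ratio of means of 703. The digits of its deposited line had to be regrouped, so these values depend on that reading. The reading was chosen partly for a small spread within groups, so the closeness of its replicates, the SE and the p-value depend on that choice. In weighted stems, which are other libraries, the difference was 10.31.

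Large increases were also seen among protein phosphatases of type 2C. In Arabidopsis, clade A of this family switches abscisic acid signalling off; the tables do not give the clade of the tomato genes. Solyc03g007230.4 had 372, 427 and 357 FPKM in 10 day control stems, against 6.26, 8.1 and 4.58 FPKM in 6 h control stems (log2 difference 5.75, SE 0.19, limma adjusted p = 9.6e-06). Solyc03g096670.3 averaged 256 ± 54.1 FPKM in 10 day control stems and 7.56 ± 0.79 FPKM in 6 h control stems (log2 difference 4.89, SE 0.17, limma adjusted p = 9.6e-06). All 3 libraries of the later collection lay far above all 3 of the earlier one for both genes, a gap favoured by their choice for large differences. Both genes rose in weighted stems as well, by 7.23 and 5.87. The family as a whole was divided: of 19 tested members (20 deposited) 9 rose, 6 fell and 4 did not pass, at a median of 0.17. Solyc01g065700.3 fell, with 0.66, 0.27 and 0.33 FPKM in 10 day control stems, against 27.6, 25.4 and 17 FPKM in 6 h control stems (difference -4.08).

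Genes of abscisic acid synthesis, breakdown and reception moved apart. The receptor gene PYL4 (Solyc03g095780.3) had 2.8, 6.06 and 2.66 FPKM in 10 day control stems, against 77.2, 49.4 and 79.8 FPKM in 6 h control stems (log2 difference -3.89, SE 0.31, limma adjusted p = 9.4e-05), and in weighted stems its difference was -5.33. CYP707A1 (Solyc04g078900.3), whose enzyme inactivates the hormone, had 11.7, 42.1 and 10.9 FPKM in 10 day control stems, against 2.02, 1.27 and 1.5 FPKM in 6 h control stems. Replicate 2 of the later collection was far above the other two for CYP707A1, and its difference of 2.85 (limma adjusted p = 0.0022) was 2.25 without that library. Zeaxanthin epoxidase (Solyc02g090890.4), which makes a precursor of the hormone, rose by 0.90. Of the 7 tested dehydrin, LEA and HVA22 genes, encoding proteins that accumulate in drying tissue, 4 rose and 3 fell, at a median of 1.35. The HVA22-like gene Solyc11g010930.2 had 39.5, 59 and 47.8 FPKM in 10 day control stems, against 5, 5.76 and 6.29 FPKM in 6 h control stems, with no overlap (difference 2.88). Among the LEA_2 genes, Solyc04g078750.3 had 59.7, 63.9 and 65.4 FPKM in 10 day control stems, against 262, 199.9 and 281 FPKM in 6 h control stems and fell by 1.94.

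All 4 genes of galactinol and raffinose synthesis rose, at a median of 2.37. These enzymes make sugars that build up in seeds and in drying or cold tissue. The galactosyltransferase gene Solyc02g086530.4 had 29.1, 41.2 and 25.3 FPKM in 10 day control stems, against 0.85, 0.44 and 0.81 FPKM in 6 h control stems (log2 difference 4.25, SE 0.21, limma adjusted p = 2e-05). Galactinol synthase 2 (Solyc02g084980.3), the first step of the path, had 25.7, 185 and 53.8 FPKM in 10 day control stems, against 7.18, 7.29 and 12.1 FPKM in 6 h control stems. Its libraries did not overlap, but 10 day replicate 2 stood above the other 10 day libraries; the difference was 2.75 (limma adjusted p = 0.0097), 1.99 without that library and 3.39 without 10 day replicate 1. In weighted stems galactinol synthase 2 rose by 4.35. SNF4 (Solyc06g068160.3), a subunit of a protein kinase that senses low energy in yeast and plants, had 99.6, 134 and 74.8 FPKM in 10 day control stems, against 0.24, 0.51 and 0.36 FPKM in 6 h control stems (difference 6.21, limma adjusted p = 9.6e-06). A papain-type cysteine protease gene (Solyc02g076910.3) was near 0 in every 6 h library and averaged 58.8 ± 19.7 FPKM in 10 day control stems and 0.04 ± 0.017 FPKM in 6 h control stems.

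**Figure D2:**
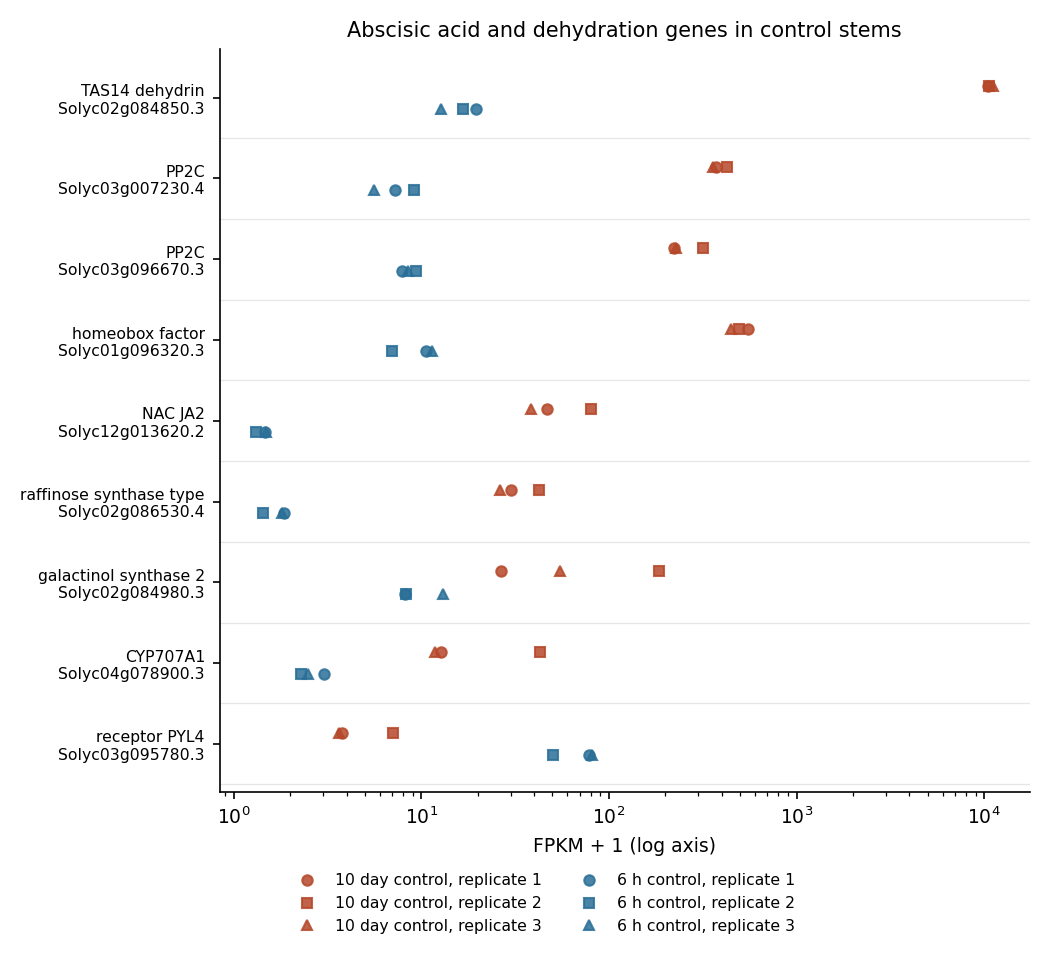
FPKM + 1 (log axis) of 9 genes in each of the 3 libraries of 10 day control stems (red) and 6 h control stems (blue), with a symbol for each replicate. They are a dehydrin, type 2C phosphatases, a homeobox and a NAC factor, genes of raffinose synthesis, CYP707A1 and PYL4. The genes were picked from their lists. Not drawn are the 6 of 19 type 2C phosphatases and the 3 of 7 dehydrin, LEA and HVA22 genes that fell. PYL4 lies lower at 10 days, the other 8 genes lie higher, and CYP707A1 and galactinol synthase 2 have 10 day replicate 2 above the other 10 day libraries.

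Small heat shock proteins rose most as a group, with the highest median of the 67 gene lists. Of the 13 HSP20 genes, all tested, 12 rose and 1 fell, at a median of 4.11. Their summed level was 14411, 34616 and 19098 FPKM in 10 day control stems, against 1124, 1190 and 1343 FPKM in 6 h control stems. Every later library exceeded every earlier one by a wide margin, and replicate 2 was the highest. It was the top library for 8 of the 9 members that rose by at least 1, and replicate 3 for the remaining gene, Solyc09g015000.4, named after its values were seen.

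The chloroplast small heat shock protein gene Solyc03g082420.3 had 636, 2031 and 971 FPKM in 10 day control stems, against 7.4, 7.27 and 9.01 FPKM in 6 h control stems (log2 difference 6.93, SE 0.40, limma adjusted p = 3.2e-05), and the difference was 6.47 without 10 day replicate 2, the highest library. The class II gene Le-HSP17.6 (Solyc08g062437.1) had 469, 1768 and 742 FPKM in 10 day control stems, against 9.33, 10.2 and 12.2 FPKM in 6 h control stems (difference 6.21, and 5.68 without 10 day replicate 2). The most abundant member, a 17.8 kDa class I gene (Solyc06g076520.1), averaged 10286 ± 3979.5 FPKM in 10 day control stems and 378 ± 84.6 FPKM in 6 h control stems (difference 4.72). Near-identical class I copies may share reads, so the values of single class I genes are uncertain. Solyc01g098810.4 was the member that fell, with 26.9, 27.8 and 22.8 FPKM in 10 day control stems, against 61.2, 53.6 and 66.2 FPKM in 6 h control stems (difference -1.19). In weighted stems 9 of 13 rose and 2 fell, at a median of 3.69. Leaving out any 1 of the 6 control libraries gave 10 or 11 that rose and 1 that fell.

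Other chaperones and the heat stress factors moved less evenly. Of 68 other heat shock proteins and co-chaperones 32 rose, 19 fell and 17 did not pass, at a median of 0.52. An HSP70 gene (Solyc11g020040.2) had 64.9, 237 and 91.5 FPKM in 10 day control stems, against 10.7, 11.1 and 11.4 FPKM in 6 h control stems, with 10 day replicate 2 again the highest (difference 3.23, and 2.70 without it). A heat shock cognate 70 gene (Solyc06g076020.3), which folds proteins without stress, had 10.3, 119 and 18.7 FPKM in 10 day control stems, against 250.2, 204 and 216 FPKM in 6 h control stems; its groups did not overlap, and its difference of -2.90 (limma adjusted p = 0.017) was -2.20 without 10 day replicate 1 and -3.90 without 10 day replicate 2. That call was lost without 10 day replicate 3, without 6 h replicate 1 and without 6 h replicate 3, with limma adjusted p between 0.051 and 0.058. Of the 10 heat stress transcription factor genes tested (11 deposited), which switch chaperone genes on, 5 rose and 1 fell, and 4 fell without 10 day replicate 2. Solyc12g007070.2 had 95, 108 and 104 FPKM in 10 day control stems, against 2.95, 4.71 and 2.59 FPKM in 6 h control stems (log2 difference 4.58, SE 0.19, limma adjusted p = 1.3e-05). Heat stress transcription factor A-6b (Solyc06g053950.3) averaged 27.4 ± 7.32 FPKM in 10 day control stems and 1.6 ± 0.18 FPKM in 6 h control stems. In Solyc12g007070.2 the 10 day replicates lay close together.

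**Figure D3:**
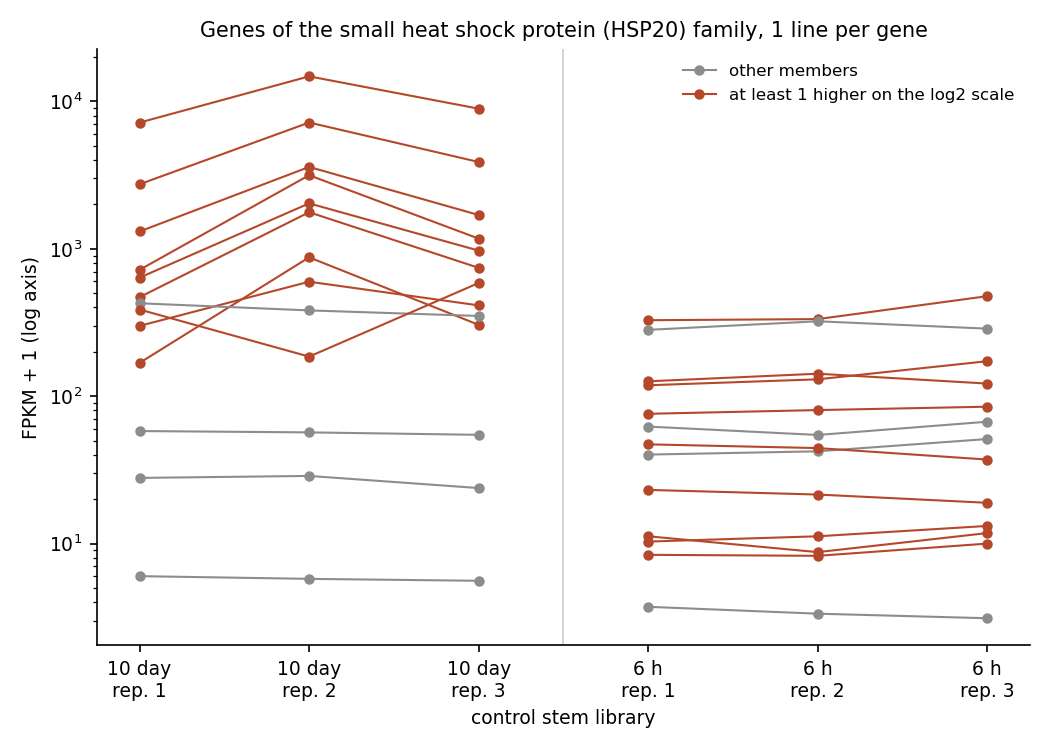
FPKM + 1 (log axis) of the 13 small heat shock protein (HSP20) genes in each control stem library, 10 day libraries on the left and 6 h libraries on the right, with 1 line per gene; red lines are the 9 genes with a log2 difference of at least 1. The red genes sit far higher in the 10 day libraries, and 8 of the 9 peak in 10 day replicate 2.

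Clock genes were mostly higher in the later stems. Of 22 tested genes (23 deposited) of the circadian clock and the CONSTANS-like B-box family, which time daily and day-length responses, 17 rose, 1 fell and 4 did not pass, at a median of 1.13. Because clock transcripts cycle through the day and the hour of cutting is not given, a difference in hour and a difference in age cannot be told apart here. An ELF4-type gene (Solyc07g041340.2), part of the evening complex in Arabidopsis, had 85.1, 51.1 and 76.3 FPKM in 10 day control stems, against 15.2, 14.3 and 11.5 FPKM in 6 h control stems (log2 difference 2.27, SE 0.21, limma adjusted p = 0.00017). A gene with a CCT motif (Solyc07g008540.3) averaged 17.1 ± 1.47 FPKM in 10 day control stems and 3.37 ± 1.28 FPKM in 6 h control stems. The 3 libraries of each group did not overlap for either gene, as for 73.4% of all genes tested.

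Gigantea (Solyc12g056650.2), an afternoon gene in Arabidopsis, had 27.3, 42.2 and 34.5 FPKM in 10 day control stems, against 7.83, 6.7 and 7.66 FPKM in 6 h control stems, and the LHY-like gene (Solyc10g005080.3), of the morning loop there, had 62.3, 76.1 and 65.2 FPKM in 10 day control stems, against 18.1, 15.4 and 15.7 FPKM in 6 h control stems. Their differences were 2.07 and 1.98 (limma adjusted p = 0.00011 and 4.5e-05); these genes, CONSTANS 1 and early flowering 3 were chosen after their values were seen. CONSTANS 1 (Solyc02g089540.3) had 32.3, 18.7 and 30.1 FPKM in 10 day control stems, against 10.8, 9.12 and 6.07 FPKM in 6 h control stems, and early flowering 3 (Solyc08g065870.4) rose by 1.27. The member that fell was a B-box gene (Solyc05g024010.3), with 7.88, 4.93 and 6.81 FPKM in 10 day control stems, against 13.2, 12.4 and 16.1 FPKM in 6 h control stems. In weighted stems 16 of these genes rose and 2 fell. Of 6 flowering and meristem regulators 4 rose and 0 fell, among them a MADS-box gene (Solyc06g069430.3) at 8.12, 6.62 and 7.92 FPKM in 10 day control stems, against 2.3, 1.36 and 1.55 FPKM in 6 h control stems, and an SBP-domain gene (Solyc10g018780.3) that rose by 1.07.

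Most of the NAC transcription factor genes rose. NAC proteins act in secondary wall formation, ageing and stress. Of 15 tested 11 rose and 1 fell, at a median of 1.08. JA2 (Solyc12g013620.2), known in tomato for its part in closing stomata, had 45.7, 79.5 and 37.3 FPKM in 10 day control stems, against 0.46, 0.32 and 0.49 FPKM in 6 h control stems (log2 difference 5.20, SE 0.27, limma adjusted p = 2.3e-05). NAC domain-containing protein 2 (Solyc04g005610.3) averaged 23.4 ± 2.64 FPKM in 10 day control stems and 0.02 ± 0 FPKM in 6 h control stems. Both were under 1 FPKM in every 6 h library. The called decrease, Solyc06g073050.2, carries a peptidase M20 domain in the deposited annotation beside its NAC name, so its place in the family is uncertain.

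Homeobox genes with a leucine zipper, some of them responsive to water supply in Arabidopsis, also held large increases. Solyc01g096320.3 had 551, 492 and 447 FPKM in 10 day control stems, against 9.62, 5.98 and 10.5 FPKM in 6 h control stems (log2 difference 5.71, SE 0.21, limma adjusted p = 9.6e-06), and Solyc05g006980.3 averaged 42.4 ± 4.84 FPKM in 10 day control stems and 1.73 ± 0.34 FPKM in 6 h control stems. Over all homeobox factors 13 of 31 tested (32 deposited) rose and 9 fell. AP2/ERF factors, the family of ethylene and drought response factors, went 10 up and 15 down of 28 tested (32 deposited), at a median of -1.12. An AP2/ERF gene (Solyc01g065980.4) had 647, 771 and 620.1 FPKM in 10 day control stems, against 13.3, 12 and 15.4 FPKM in 6 h control stems (difference 5.55), whereas its difference in weighted stems was 2.82. DREBA4 (Solyc06g066540.1) rose by 2.94, and ERF1 (Solyc01g090310.3) fell to 0, 0.81 and 0.26 FPKM in 10 day control stems, against 30.2, 12 and 32 FPKM in 6 h control stems. MYB factors went 15 up and 9 down of 31 tested (36 deposited), with Solyc02g036370.3 rising by 3.29 and Solyc06g083900.3 at a difference of -2.84. bHLH factors went 8 up and 19 down of 42 tested (48 deposited), among them MTB2 (Solyc05g050560.1), a tomato repressor of jasmonate response, at 7.78, 16.6 and 8.97 FPKM in 10 day control stems, against 83.4, 36.7 and 103 FPKM in 6 h control stems. WRKY factors, many of them defence regulators, went 4 up and 3 down of 14 tested (16 deposited). Their largest difference (Solyc08g067340.4, 2.28) was 3.10 without 10 day replicate 1 and was not called without 10 day replicate 2 or 3 or without 6 h replicate 2 or 3, with limma adjusted p between 0.051 and 0.060.

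Most xyloglucan endotransglucosylases and pectin-modifying enzymes tested were lower in the later stems. Xyloglucan endotransglucosylase genes, whose enzymes cut and rejoin the polymers that tie cellulose fibrils, went 3 up and 8 down of 11 tested (13 deposited), at a median of -3.77. Their summed level was 504 to 786 FPKM in 10 day control stems and 4023 to 4418 FPKM in 6 h control stems. Solyc12g011030.3 had 1.63, 1.36 and 0.17 FPKM in 10 day control stems, against 153, 113 and 220 FPKM in 6 h control stems (log2 difference -6.34, SE 0.37, limma adjusted p = 3.3e-05). Solyc09g092520.3 averaged 3.08 ± 2.35 FPKM in 10 day control stems and 230.1 ± 19.7 FPKM in 6 h control stems (difference -6.01). For both genes the 3 libraries of each group lay close together beside the gap between the groups. The family was not uniform: Solyc01g081060.4 had 89.6, 83.8 and 85.8 FPKM in 10 day control stems, against 7.38, 6.83 and 6.88 FPKM in 6 h control stems, with little spread in either group (log2 difference 3.44, SE 0.10, limma adjusted p = 7.4e-06), and Solyc04g008210.2 rose by 2.24.

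Proteins of the cell wall with a hydrophobic seed or extensin domain were lower: 0 rose and 7 of 9 tested (11 deposited) fell, at a median of -3.17. Solyc08g005960.2 had 0.97, 0.35 and 0.25 FPKM in 10 day control stems, against 132, 63.3 and 185 FPKM in 6 h control stems (difference -6.29). Solyc08g078940.1 was listed at 0 in 10 day replicates 2 and 3 and at 3.97 FPKM in replicate 1, against 126, 218 and 89.2 FPKM in 6 h control stems; its difference of -6.32 was -7.09 without 10 day replicate 1. Pectin-modifying enzymes and BURP-domain proteins, which act on the gel between cells, went 7 up and 29 down of 46 tested (49 deposited), at a median of -1.61. A pectinesterase gene (Solyc02g080200.4) had 1.26, 0.69 and 1.32 FPKM in 10 day control stems, against 40.4, 39.3 and 48.6 FPKM in 6 h control stems (difference -4.40, against -1.78 in weighted stems). A BURP-domain gene (Solyc01g109500.4) averaged 22.2 ± 5.42 FPKM in 10 day control stems and 468 ± 48.2 FPKM in 6 h control stems, while another of that domain (Solyc08g068150.4) rose to 228 ± 24.9 FPKM in 10 day control stems, against 38.1 ± 3.06 FPKM in 6 h control stems. Expansins went 3 up and 5 down of 13 tested (15 deposited), a share down close to the 37.3% of all genes tested, and 8 down without 10 day replicate 1. Their summed level of 404 to 569 FPKM in 10 day control stems overlapped the 522 to 554 FPKM of 6 h control stems. The expansin Solyc02g088100.3 had 25.7, 12.8 and 7.94 FPKM in 10 day control stems, against 128, 109.6 and 111 FPKM in 6 h control stems (difference -2.97).

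Genes of lignin, xylan and cellulose formation were mixed, with laccases and xylan genes mostly higher. These lists go by names and domains and do not separate secondary from other walls. Laccases join lignin monomers in the wall. Of the 8 tested (9 deposited) 6 rose and 2 fell, at a median of 0.97. Without 10 day replicate 2 or 3, or 6 h replicate 2 or 3, 1 fell. The summed level was 299 to 329 FPKM in 10 day control stems and 117 to 172 FPKM in 6 h control stems. Solyc05g052340.4 had 40.5, 25.8 and 34.9 FPKM in 10 day control stems, against 8.63, 11.7 and 8.01 FPKM in 6 h control stems (log2 difference 1.73, SE 0.21, limma adjusted p = 0.00048). The most abundant laccase, Solyc09g014240.4, chosen after its value was seen, averaged 132 ± 7.89 FPKM in 10 day control stems and 60.4 ± 13.5 FPKM in 6 h control stems. Solyc05g050540.4 went the other way, at 3.4, 1.49 and 2.51 FPKM in 10 day control stems, against 8.06, 7.7 and 6.74 FPKM in 6 h control stems. In weighted stems the median of the laccases was 1.93.

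Of 25 tested (27 deposited) enzymes of lignin precursor synthesis 11 rose and 8 fell, at a median of 0.31. A gene annotated as 4-coumarate-CoA ligase (Solyc03g025720.3), a name that covers a wide enzyme family, had 147, 421 and 157 FPKM in 10 day control stems, against 4.84, 5.53 and 6.4 FPKM in 6 h control stems (difference 5.03, and 4.54 without 10 day replicate 2). Of 3 caffeoyl-CoA O-methyltransferase genes, which methylate lignin precursors, 2 fell and Solyc01g107910.4 rose by 1.08, a gene named after its value was seen. Solyc09g082660.3 had 41.6, 5.79 and 19.1 FPKM in 10 day control stems, against 105, 125 and 94 FPKM in 6 h control stems, with a difference of -2.59 that was -3.21 without 10 day replicate 1 and -1.89 without 10 day replicate 2. The other that fell, Solyc04g063210.3, had 18.6, 8.13 and 15.4 FPKM in 10 day control stems, against 53.6, 41 and 46.5 FPKM in 6 h control stems and a difference of -1.74, whereas in weighted stems it rose by 0.68. Class III peroxidases, which also oxidise lignin monomers, went 11 up and 12 down of 28 tested (36 deposited). Solyc09g007270.3 averaged 1564 ± 297 FPKM in 10 day control stems and 271 ± 27.7 FPKM in 6 h control stems on regrouped digits, and Solyc03g044100.4 fell to 2.44 ± 1.74 FPKM in 10 day control stems, against 88.9 ± 2.75 FPKM in 6 h control stems.

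Of 6 tested genes (7 deposited) of xylan and mannan synthesis 5 rose and 1 fell, at a median of 1.55. Solyc01g103360.4, with a polysaccharide synthesis domain found in xylan methyltransferases, had 162, 127 and 145 FPKM in 10 day control stems, against 28.5, 39.5 and 24.5 FPKM in 6 h control stems (log2 difference 2.21, SE 0.19, limma adjusted p = 0.00013). Cellulose synthase and COBRA genes, which make and align cellulose, went 11 up and 9 down of 22. The COBRA-like gene Solyc03g114900.3 averaged 295 ± 18.4 FPKM in 10 day control stems and 60.7 ± 13.6 FPKM in 6 h control stems (difference 2.28), and the cellulose synthase-like gene D5 (Solyc09g075550.3) fell by 2.37. Fasciclin-like arabinogalactan proteins, some of them wood proteins, went 3 up and 3 down of 8. Solyc09g007660.1 averaged 771 ± 23.2 FPKM in 10 day control stems and 227 ± 52.2 FPKM in 6 h control stems, and Solyc07g045440.1 averaged 116 ± 3.3 FPKM in 10 day control stems and 702 ± 43 FPKM in 6 h control stems; neither gene had overlapping groups, and they moved in opposite directions. Wall acetylation genes of the trichome birefringence-like family went 10 up and 8 down of 20 tested (21 deposited), with Solyc05g052450.3 at 24.1, 24.4 and 23.4 FPKM in 10 day control stems, against 6.35, 6.19 and 5.37 FPKM in 6 h control stems.

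Genes of cell division were lower in the later stems. Of 48 tested (49 deposited) cell cycle and replication genes 6 rose and 35 fell, at a median of -1.44. The D-type cyclin CycD3.3 (Solyc04g078470.3), which starts the cycle, had 5.01, 1.48 and 1.39 FPKM in 10 day control stems, against 34.9, 51 and 42.5 FPKM in 6 h control stems (log2 difference -3.72, SE 0.37, limma adjusted p = 0.00022). Ribonucleotide reductase (Solyc04g012060.3), which makes DNA precursors, averaged 5.59 ± 2.14 FPKM in 10 day control stems and 35.3 ± 4.47 FPKM in 6 h control stems. A B-type cyclin (Solyc10g078330.2), an aurora kinase (Solyc08g066050.3) and the helicase subunit MCM2 (Solyc11g040120.3), chosen after their values were seen, fell by 2.42, 2.12 and 1.90. The groups overlapped for none of these 5 genes. The way these genes were chosen favours that, and 73.4% of all genes tested had no overlap. Among the 27 members that fell by at least 1, 10 day replicate 1 was the highest of its group in all 27. In weighted stems 8 members rose and 29 fell, at a median of -0.64.

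Tubulins and kinesins, of the spindle and of the microtubules that guide cellulose, went 4 up and 37 down of 45 tested (47 deposited), at a median of -1.29. A tubulin gene (Solyc02g087880.3) had 23.7, 13.3 and 17.6 FPKM in 10 day control stems, against 108, 144 and 146 FPKM in 6 h control stems (difference -2.82), while a tubulin beta chain gene (Solyc03g118760.4) had 11.6, 11.9 and 8.85 FPKM in 10 day control stems, against 0.28, 0.54 and 0.2 FPKM in 6 h control stems. Histones went 3 up and 7 down of 13, among them a histone H4 (Solyc11g072860.2) at 81.5, 43.3 and 67.2 FPKM in 10 day control stems, against 424, 524 and 599 FPKM in 6 h control stems. Histone H3 (Solyc11g010230.2) rose, with 746 ± 52.5 FPKM in 10 day control stems and 396 ± 6.39 FPKM in 6 h control stems. Histone copies are near-identical, so single values are uncertain. Of 169 cytosolic ribosomal protein genes 6 rose, 81 fell and 82 did not pass, at a median of -0.33. The number that fell was 51 without 10 day replicate 3 and 50 without 6 h replicate 3, and 16 rose with median ratio scaling. A decrease of at least 1 was reached by 3 members. Among them, the S8 gene (Solyc06g083180.4) averaged 115 ± 25.5 FPKM in 10 day control stems and 244 ± 23.3 FPKM in 6 h control stems. In weighted stems 156 of 169 fell. Actin-58 (Solyc05g054480.3), of the 5 housekeeping genes tested, fell to 7.19 ± 2.91 FPKM in 10 day control stems, against 71.1 ± 4.85 FPKM in 6 h control stems; of the other 4, 2 rose, 1 fell and 1 did not pass. The number that rose was 0 without 6 h replicate 1, and 1 without 10 day replicate 1 or 3, without 6 h replicate 2 or 3, or with equal totals.

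More nitrogen assimilation genes fell than rose, and several of those named below were chosen after their values were seen. Nitrate reductase and nitrite reductase turn nitrate into ammonium, and glutamine and asparagine synthetases fix that ammonium into amides. Of 20 tested (22 deposited) genes 4 rose, 11 fell and 5 did not pass, at a median of -0.72. Nitrate reductase (Solyc11g013810.3) had 22.2, 25.9 and 16.6 FPKM in 10 day control stems, against 339, 435 and 325 FPKM in 6 h control stems (log2 difference -4.03, SE 0.19, limma adjusted p = 2e-05). Nitrite reductase (Solyc01g108630.3) had 5.89, 3.38 and 4.94 FPKM in 10 day control stems, against 171, 197 and 196 FPKM in 6 h control stems (log2 difference -5.07, SE 0.18, limma adjusted p = 9.6e-06). Both lay far lower in each 10 day library than in any 6 h library.

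The 3 tested glutamine synthetase genes differed. Solyc04g014510.3 had 8.78, 0.39 and 1.74 FPKM in 10 day control stems, against 371, 383 and 336 FPKM in 6 h control stems, a difference of -6.77 that was -7.54 without 10 day replicate 1 and -6.13 without 10 day replicate 2. Solyc01g080280.3 had 129.7, 72.2 and 117 FPKM in 10 day control stems, against 384, 447 and 396 FPKM in 6 h control stems (difference -1.98). Solyc11g011380.2, the most abundant of the 3 in 10 day stems, had 599, 379 and 453 FPKM in 10 day control stems, against 477, 489 and 517 FPKM in 6 h control stems, with overlapping groups and a difference of -0.08 (limma adjusted p = 0.71). Asparagine synthetase (Solyc04g055200.3) averaged 16.3 ± 8.17 FPKM in 10 day control stems and 119 ± 3.68 FPKM in 6 h control stems, and glutamate synthase 1 (Solyc03g083440.4) averaged 22.6 ± 5.47 FPKM in 10 day control stems and 98.2 ± 11.6 FPKM in 6 h control stems. The 4 members that rose were all transporters, among them the ammonium transporter genes Solyc09g090730.2, at 29.9, 16.4 and 27 FPKM in 10 day control stems, against 2.39, 1.74 and 4.64 FPKM in 6 h control stems, and LeAMT1;3 (Solyc03g045070.1), which rose by 1.95. Nitrate reductase, the synthetases other than Solyc04g014510.3 and glutamate synthase 1 were chosen after their values were seen. In weighted stems nitrate reductase and nitrite reductase fell by 3.10 and 3.73.

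**Figure D4:**
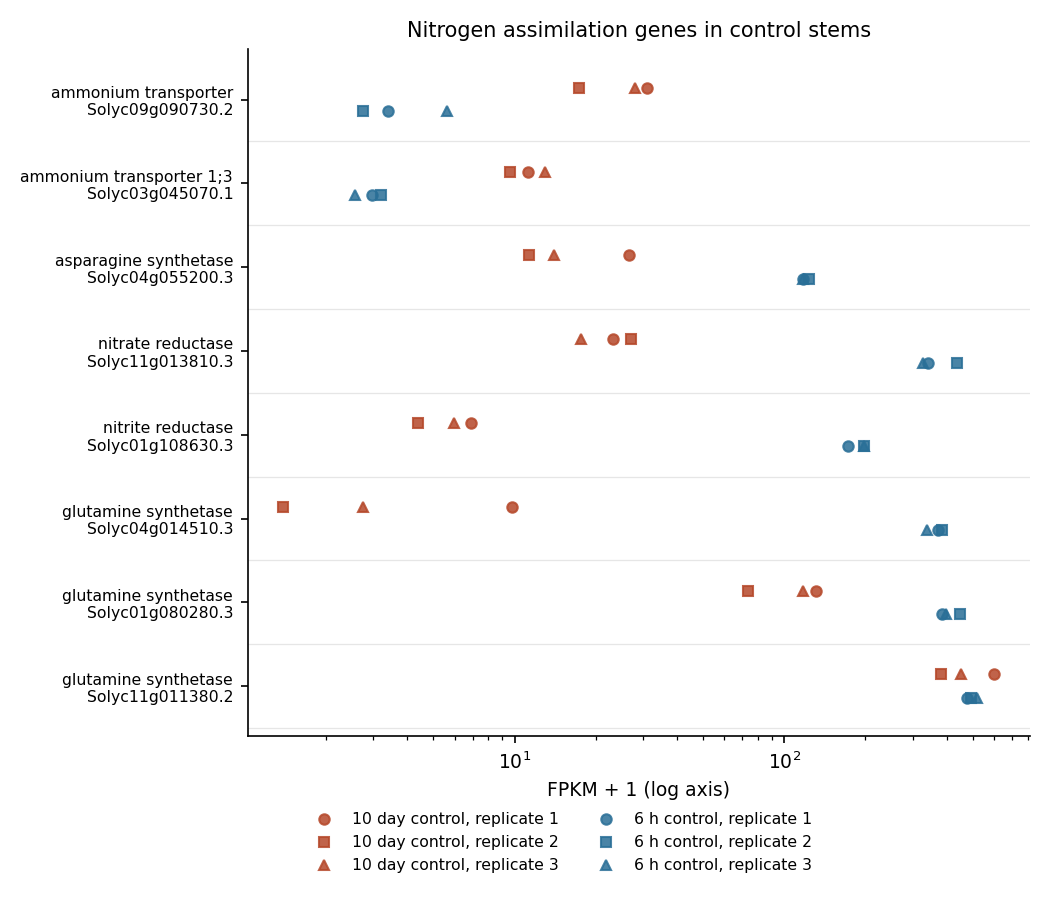
FPKM + 1 (log axis) of 8 genes of nitrogen uptake and assimilation in each library of 10 day control stems (red) and 6 h control stems (blue), with a symbol for each replicate. The ammonium transporter genes lie higher at 10 days, 5 genes of assimilation lie lower, and glutamine synthetase Solyc11g011380.2 overlaps between the groups.

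More photosynthesis genes fell than rose. Of 60 light-harvesting and photosystem genes 8 rose, 21 fell and 31 did not pass, at a median of -0.27. That share of lower calls was close to that of all genes, but it moved with the processing. The number that fell was 30 with equal totals, 28 without 6 h replicate 3 and 16 without 6 h replicate 1 or 2. In weighted stems 36 rose and 5 fell, at a median of 0.49. Chlorophyll a-b binding proteins, which harvest light, went both ways. Solyc06g069730.3 had 7.56, 5.13 and 5.45 FPKM in 10 day control stems, against 169.9, 182 and 114 FPKM in 6 h control stems (log2 difference -4.46, SE 0.22, limma adjusted p = 2.1e-05). Solyc02g071030.2, on regrouped digits, averaged 4455 ± 197 FPKM in 10 day control stems and 1251 ± 164 FPKM in 6 h control stems. Copies of this family may share reads, so its single values are uncertain. A gene of the Rubisco small subunit, part of the enzyme that fixes carbon dioxide, fell: Solyc02g063150.3 averaged 317 ± 96.2 FPKM in 10 day control stems and 844 ± 70.1 FPKM in 6 h control stems (difference -1.46). Of 9 Calvin cycle genes in all 2 rose and 4 fell; 2 fell without 10 day replicate 2 or 3 or 6 h replicate 1 or 2, and 1 rose without 10 day replicate 3 or 6 h replicate 1 or 3. In chlorophyll and carotenoid synthesis 6 of 17 rose and 7 fell. A carotene beta-hydroxylase gene (Solyc03g007960.3), whose enzyme makes zeaxanthin, had 189, 367 and 264 FPKM in 10 day control stems, against 62.9, 36.9 and 68.4 FPKM in 6 h control stems. A protochlorophyllide oxidoreductase gene (Solyc12g013710.2) had 30.7, 35 and 63.8 FPKM in 10 day control stems, against 139, 165 and 94.3 FPKM in 6 h control stems.

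Sugar genes went both ways. Of 34 genes of starch, sucrose and trehalose metabolism 11 rose and 14 fell. A sucrose synthase gene (Solyc09g098590.4), of the enzyme that splits sucrose, had 54.4, 66.1 and 57.9 FPKM in 10 day control stems, against 5.74, 5.04 and 5.99 FPKM in 6 h control stems (log2 difference 3.20, SE 0.12, limma adjusted p = 1e-05). A sucrose-phosphate synthase gene (Solyc07g007790.3), of the enzyme that makes sucrose, averaged 158 ± 40.8 FPKM in 10 day control stems and 18.9 ± 1.15 FPKM in 6 h control stems. An alkaline or neutral invertase gene (Solyc01g111100.5) fell to 1.02 ± 0.67 FPKM in 10 day control stems, against 22.2 ± 6.48 FPKM in 6 h control stems. Of 13 tested sugar transporter genes (14 deposited) 6 rose and 5 fell; within the SWEET exporters Solyc03g097570.3 rose by 2.32 and Solyc04g064630.3 fell by 2.44. Water channels went 5 up and 8 down of 17, and 3 up without 10 day replicate 3 or any 1 of the 6 h replicates. A channel of the major intrinsic family (Solyc12g044330.2) had 224, 330.2 and 211 FPKM in 10 day control stems, against 1614, 1498 and 1208 FPKM in 6 h control stems (difference -2.51), and Solyc08g013730.3, a NIP-type channel, rose by 1.04. Of 18 tested phosphate and potassium transporter genes (22 deposited) 2 rose and 5 fell (1 rose without 10 day replicate 3 or 6 h replicate 1 or 2), with the PHO1-like gene Solyc02g088230.3 at a difference of -2.02.

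Ethylene genes went both ways. ACC synthase and ACC oxidase make the hormone. Of 4 tested genes (7 deposited) 2 rose and 2 fell. An ACC oxidase homolog (Solyc09g089580.4) had 198, 204 and 92.4 FPKM in 10 day control stems, against 8.83, 12.1 and 10.4 FPKM in 6 h control stems (difference 3.78). ACC oxidase 4 (Solyc07g049550.3) had 4.58, 1.02 and 0.61 FPKM in 10 day control stems, against 26.9, 23.2 and 45.4 FPKM in 6 h control stems (difference -3.58), and ACC synthase Solyc02g091990.3 fell by 2.43. The ACC oxidase gene Solyc02g036350.3 rose by 2.24, with 179.6, 68.1 and 81.8 FPKM in 10 day control stems, against 23.7, 13.9 and 25.4 FPKM in 6 h control stems, whereas its difference in weighted stems was -3.08. Of 8 genes of perception and signalling 5 rose and 2 fell, at a median of 1.13. EIN3-binding F-box protein 2 (Solyc07g008250.3), which targets the ethylene factor EIN3 for removal, had 74.8, 142 and 73.2 FPKM in 10 day control stems, against 15.3, 19.7 and 22.9 FPKM in 6 h control stems (log2 difference 2.21, SE 0.29, limma adjusted p = 0.00065). The receptor gene LeETR2 (Solyc07g056580.3) rose by 1.22. The smaller decrease of another receptor gene (Solyc05g055070.4, -0.43, limma adjusted p = 0.026) was not called without 10 day replicate 1 or 3 or without 6 h replicate 1 or 3, nor with median ratio or quantile scaling.

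Auxin genes moved in both directions. SAUR genes, small early transcripts of auxin response, went 3 up and 3 down of 9 tested (15 deposited). Solyc12g009290.1 had 2.05, 2.04 and 1.45 FPKM in 10 day control stems, against 28.8, 36 and 31.8 FPKM in 6 h control stems (difference -3.55), and Solyc01g096340.3 had 203, 258 and 249.6 FPKM in 10 day control stems, against 43.4, 48.9 and 33.8 FPKM in 6 h control stems (difference 2.47). Aux/IAA repressors went 3 up and 2 down of 10 tested (12 deposited), with Solyc03g120390.3 rising by 1.96 and Solyc09g083280.3 at -1.30. Of 9 auxin response factors 0 rose and 2 fell. Without 10 day replicate 2, 4 rose and 1 fell, and 1 fell without 10 day replicate 3 or any 1 of the 6 h replicates. With median ratio and quantile scaling 4 and 5 rose and 1 fell. Auxin carriers and GH3 enzymes, which move or conjugate auxin, went 2 up and 6 down of 8 tested (10 deposited), and 1 up without 6 h replicate 1 or 2. The efflux carrier gene Solyc01g068410.4 averaged 11.5 ± 1.86 FPKM in 10 day control stems and 31.4 ± 2.58 FPKM in 6 h control stems, and the GH3 gene Solyc05g050280.3 rose by 1.56.

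Among gibberellin genes 8 of 18 tested (20 deposited) rose and 5 fell, and 8 fell without 10 day replicate 2. GAST1 (Solyc02g089350.3), a tomato gene first known for its response to gibberellin, had 22.6, 12.4 and 5.32 FPKM in 10 day control stems, against 236, 179.5 and 219 FPKM in 6 h control stems (log2 difference -4.07, SE 0.45, limma adjusted p = 0.00031). A GID1-like receptor gene (Solyc06g008870.2) had 62.9, 50.5 and 57.9 FPKM in 10 day control stems, against 6.47, 7.7 and 5.61 FPKM in 6 h control stems. Snakin-2 (Solyc01g150176.1), an antimicrobial peptide of the same family as GAST1, averaged 71.4 ± 12.4 FPKM in 10 day control stems and 9.41 ± 2.43 FPKM in 6 h control stems. Cytokinin genes went 7 up and 7 down of 16. The LOG-type genes, whose enzymes activate cytokinins, split: Solyc04g081290.3 had 36.6, 40.8 and 31.2 FPKM in 10 day control stems, against 8.01, 4.47 and 6.17 FPKM in 6 h control stems, and Solyc01g005680.4 fell by 1.81. Brassinosteroid genes went 0 up and 3 down of 4, among them the BES1-type gene Solyc02g063010.3, which fell by 1.17.

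More jasmonate and wound genes were called lower than higher. Of 18 tested jasmonate genes (19 deposited) 2 rose and 12 fell, at a median of -0.93. The number that fell was 8 without 10 day replicate 3 or 6 h replicate 1, and 9 without 6 h replicate 2 or 3. A phospholipase A1 gene (Solyc02g077000.3), of a class that releases lipid precursors, had 0.2, 0.15 and 0.11 FPKM in 10 day control stems, against 46.2, 46 and 57.3 FPKM in 6 h control stems (log2 difference -5.46, SE 0.13, limma adjusted p = 5.6e-06). A 13S-lipoxygenase gene (Solyc03g122340.3), of the next step, had 16.4, 108 and 34.9 FPKM in 10 day control stems, against 312, 151 and 320.1 FPKM in 6 h control stems; its difference of -2.60 was -1.98 without 10 day replicate 1 and -3.31 without 10 day replicate 2. Proteinase inhibitors, which block the gut enzymes of insects, went 2 up and 6 down of 11 tested (12 deposited), and 1 up without 6 h replicate 2. The potato inhibitor I gene Solyc09g084450.3 had 1.39, 0.07 and 0.26 FPKM in 10 day control stems, against 169, 167 and 174 FPKM in 6 h control stems, the largest decrease in the data (log2 difference -6.85, SE 0.29, limma adjusted p = 1.4e-05). Its neighbour in number, Solyc09g084460.3, averaged 45.8 ± 19.4 FPKM in 10 day control stems and 626 ± 60.6 FPKM in 6 h control stems, and near-identical copies of this family may share reads.

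Subtilases, secreted proteases, went 2 up and 15 down of 27 tested (32 deposited), at a median of -1.28, and 4 up without 10 day replicate 2 and 1 up without 6 h replicate 3; Solyc02g030120.3 averaged 1.75 ± 1.32 FPKM in 10 day control stems and 13 ± 2.46 FPKM in 6 h control stems. Pathogenesis-related proteins and chitinases went 8 up and 17 down of 31 tested (36 deposited). PR10 (Solyc09g090980.3) had 523, 468 and 428 FPKM in 10 day control stems, against 33.3, 29.2 and 17.3 FPKM in 6 h control stems (difference 4.15), while another Bet v 1 gene (Solyc04g007760.3) had 8.2, 1.86 and 1.35 FPKM in 10 day control stems, against 261, 243 and 254 FPKM in 6 h control stems (difference -6.00, -6.61 without 10 day replicate 1). Receptor kinases, the cell surface sensors, went 12 up and 56 down of 83 tested (94 deposited), at a median of -0.76. An S-locus type kinase gene (Solyc04g077270.4) had 0.75, 4.09 and 2.57 FPKM in 10 day control stems, against 123, 62.7 and 99.3 FPKM in 6 h control stems. A wall-associated kinase type gene (Solyc01g100090.1) was listed at 0 in all 6 h control libraries and had 15.3, 32.1 and 34.4 FPKM in 10 day control stems. Calcium sensor genes went 16 up and 26 down of 61 tested (66 deposited); an EF-hand gene (Solyc06g073830.1) had 0.36, 6.4 and 3.9 FPKM in 10 day control stems, against 61.1, 36.6 and 61.7 FPKM in 6 h control stems, a difference of -3.84 that was -3.13 without 10 day replicate 1.

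Metabolic enzyme families were divided. Cytochrome P450 genes went 20 up and 16 down of 51 tested (65 deposited), with the P450 92B1 gene Solyc04g071780.3 at 7.41, 15.3 and 11.2 FPKM in 10 day control stems, against 0.06, 0 and 0.05 FPKM in 6 h control stems and Solyc04g007940.4 at 0.16, 0.07 and 0.05 FPKM in 10 day control stems, against 28.4, 35.4 and 18.8 FPKM in 6 h control stems. UDP-glycosyltransferases went 12 up and 21 down of 41 tested (49 deposited), and glutathione transferases 8 up and 5 down of 24 tested (25 deposited). The glycosyltransferase gene Solyc09g092490.3 rose by 3.09, and the glutathione transferase gene Solyc09g011550.3 by 2.16. Pentatricopeptide repeat proteins, which process organelle RNA, went 20 up and 13 down of 75 tested (114 deposited). With the scalings tried 11 to 35 rose, and 12 or 13 up without 10 day replicate 3, 6 h replicate 1 or 6 h replicate 3, and 7 down without 10 day replicate 3 or 6 h replicate 3. Genes of senescence and autophagy went 3 up and 2 down of 10; the autophagy gene ATG8C-like (Solyc07g064680.3) averaged 251 ± 18.2 FPKM in 10 day control stems and 71.2 ± 7.75 FPKM in 6 h control stems. A methyltransferase-domain gene (Solyc12g040790.2) fell to 72.2, 1.77 and 5.16 FPKM in 10 day control stems, against 1079, 1369 and 828 FPKM in 6 h control stems, on regrouped digits. On this reading its difference of -6.63 was -8.02 without 10 day replicate 1 and -5.66 without 10 day replicate 2. A different reading of its digits scored almost as well (77.7 against 70.5, where lower is better), so all these values are uncertain. A transferase-family gene (Solyc12g010980.3) had a difference of -6.18. Among the most abundant transcripts, a metallothionein gene (Solyc09g010800.5.1), encoding a metal-binding protein, averaged 12096 ± 802 FPKM in 10 day control stems and 4302 ± 734 FPKM in 6 h control stems, and its log2 difference was 0.74 with quantile scaling, against 1.36 to 1.62 under the other scalings and with each library left out. A gene with no annotated name (Solyc01g095530.2) was also among them, at 7273, 5415 and 7211 FPKM in 10 day control stems, against 3699, 3997 and 2549 FPKM in 6 h control stems. The TCTP gene (Solyc01g099770.3), on regrouped digits, rose by 0.76 but by 0.03 with quantile scaling, where it did not pass.

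Marker lists of stem tissues moved with these groups, and their part in the results was not tested. Of 9 tested xylem markers (10 deposited), 8 of them the laccases above, 7 rose and 2 fell (1 fell without 10 day replicate 2 or 3 or 6 h replicate 2 or 3), with a summed level of 329 to 374 FPKM in 10 day control stems and 133 to 191 FPKM in 6 h control stems. Phloem protein 2 genes, common in sieve tubes, went 2 up and 3 down of 5 tested (6 deposited), at 55.3 to 69.2 FPKM in 10 day control stems and 90.5 to 150.3 FPKM in 6 h control stems. Cambium and meristem markers went 0 up and 5 down of 7, at 170.4 to 253 FPKM in 10 day control stems and 300.4 to 331 FPKM in 6 h control stems. An ANT-type gene (Solyc02g092050.3), which keeps cells dividing in Arabidopsis, had 3.81, 2.48 and 4.17 FPKM in 10 day control stems, against 14.2, 13.4 and 14.3 FPKM in 6 h control stems. Summed levels of these 3 lists did not overlap between the groups.

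Genes of suberised layers, most of them CASP-like proteins that are not specific to Casparian strips, went 6 up and 4 down of 11, at 443 to 595 FPKM in 10 day control stems and 117 to 130.2 FPKM in 6 h control stems. Solyc06g072530.3 had 53.4, 116 and 37.9 FPKM in 10 day control stems, against 1.05, 0.67 and 0.74 FPKM in 6 h control stems (difference 5.11), and Solyc11g012590.3 averaged 315 ± 57.6 FPKM in 10 day control stems and 23.7 ± 5.03 FPKM in 6 h control stems. Epidermis and cuticle genes went 29 up and 35 down of 75 tested (83 deposited), at 6130.4 to 7009 FPKM in 10 day control stems and 3553 to 3872 FPKM in 6 h control stems. A lipid transfer protein gene (Solyc10g075070.3) had 767, 916 and 699 FPKM in 10 day control stems, against 22.9, 36.8 and 44.4 FPKM in 6 h control stems, and Solyc03g121900.1, a DIR1-type gene, had 9.78, 2.92 and 4.63 FPKM in 10 day control stems, against 73, 100.2 and 80.2 FPKM in 6 h control stems. Trichome and terpene genes went 0 up and 4 down of 7 tested (8 deposited), at 170.1 to 383 FPKM in 10 day control stems and 253 to 267 FPKM in 6 h control stems, ranges that overlap. The CPT2 gene (Solyc08g005655.1) fell to 0.17, 0.05 and 0.02 FPKM in 10 day control stems, against 10.7, 11.1 and 12.1 FPKM in 6 h control stems. Flower organ markers went 3 up and 0 down of 5 tested (6 deposited), and root markers 1 up and 3 down of 6 tested (10 deposited; 2 up without 6 h replicate 2). A flower organ gene was listed at 0 in all 10 day control libraries, and no other marker was at 0 in all libraries of a group. Xylem, phloem, cambium and epidermis markers were detected in every library.

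For some genes the spread among 10 day libraries was as large as the change. The AP2/ERF gene Solyc01g108240.3 had 0.26, 79.6 and 20.2 FPKM in 10 day control stems, against 313, 246 and 267 FPKM in 6 h control stems. Its groups did not overlap, but 10 day replicate 2 approached the 6 h level. Its difference of -4.41 (limma adjusted p = 0.027) was -2.73 without 10 day replicate 1, -5.73 without 10 day replicate 2, and not called without 6 h replicate 1, 2 or 3 (limma adjusted p between 0.064 and 0.072). A COBRA-like gene (Solyc01g065530.3) had 14.4, 261 and 82.4 FPKM in 10 day control stems, against 386, 450.4 and 442 FPKM in 6 h control stems, and its difference was -2.62, -1.53 without 10 day replicate 1 and -3.57 without 10 day replicate 2. This call was lost without 10 day replicate 3, without any of the 6 h replicates and with median ratio scaling (limma adjusted p between 0.065 and 0.104). Over the 1119 genes that fell by at least 1, 10 day replicate 1 was the highest of its group for 796, and over the 881 that rose by at least 1, replicate 2 was the highest for 384.

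**Figure D5:**
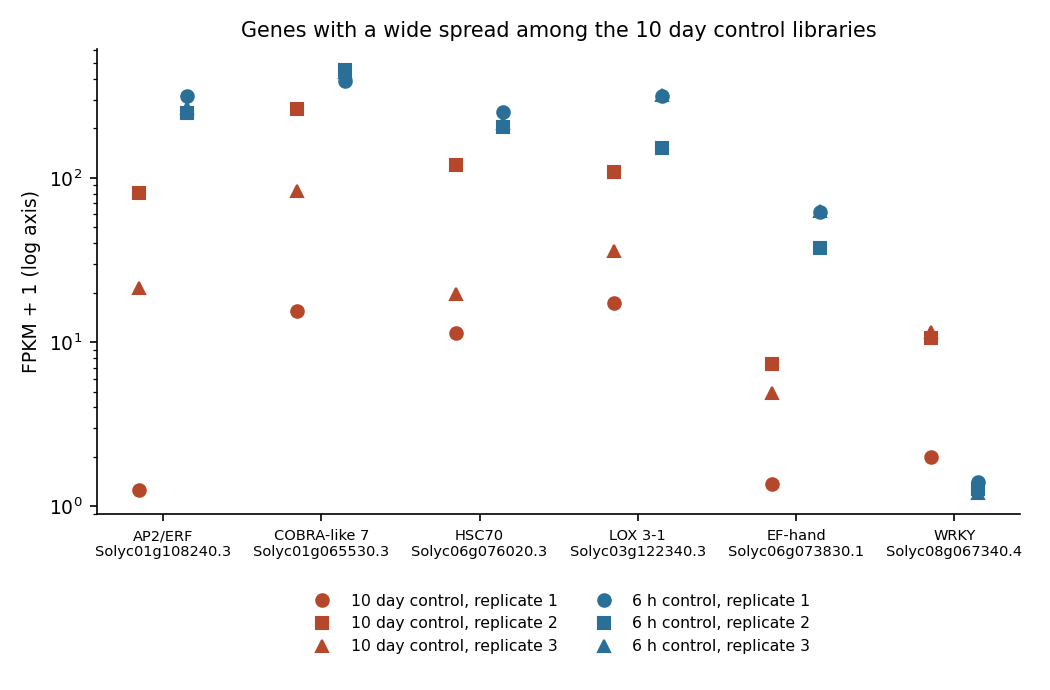
FPKM + 1 (log axis) of 6 genes with a wide spread among the 10 day control libraries (red, left of each pair) beside the 6 h control libraries (blue), with a symbol for each replicate. In the AP2/ERF gene, 10 day replicate 1 is near 0 and replicate 2 is at 79.6 FPKM, while the 6 h libraries lie between 246 and 313 FPKM.

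Weighted stems offer the same interval in libraries that share none with the control comparison, though the plants had carried the clamp. They were cut at the same times as the controls, so time and handling cannot be told apart in them either. There 4557 genes were called, 2020 higher and 2537 lower at 10 days than at 6 h, at a median of -0.13. Of the 3778 genes called in control stems and tested in weighted stems, 3444 moved in the same direction and 3010 of these were called there as well. The opposite direction was taken by 334, with 97 called. Of the 1968 with a difference of at least 1 in control stems, 1795 were called in the same direction and 17 in the opposite one. TAS14 (Solyc02g084850.3), PYL4 (Solyc03g095780.3) and nitrite reductase (Solyc01g108630.3) had differences of 10.31, -5.33 and -3.73 there.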

How the data were processed

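RNA was measured by sequencing in tomato stems, and 6 control libraries, 3 per collection, were compared. Per the labels' protocols, HISAT and Bowtie2 aligned the reads, and the FPKM values were made by the authors before deposit; the genome build, the annotation release and the handling of reads that match several genes are not stated there. The tables were restored from text in which separators and digits had run together, and 78 genes of the 6120 used needed their digits regrouped. For each, the reading with the lowest score was taken. The score added the misfit to the authors' log2 ratios and the spread between replicates within groups. The spread and p-values of regrouped genes are therefore not independent of that choice. As a check, log2 ratios of 10 day to 6 h control means from the restored FPKM were compared with the authors' deposited log2 ratios. They correlated at r = 0.999872 over 5257 genes without regrouped digits, at a median offset of 0.13. Genes in both tables were taken from the 10 day table.

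Log2(FPKM + 1) was fitted by group with limma 3.58.1 in R 4.3.3 for genes at 1 FPKM or more in at least 3 of the 6 libraries, with Benjamini-Hochberg adjustment over all 5730 genes. The labels call the replicates biological but do not say whether they were single plants or pools. The p-values set the difference between groups against the spread between these libraries, whatever plants each library held. Named genes were the 8 largest and 8 smallest differences, the 5 highest mean levels, and at most 2 per gene list and direction. All of these were called, and outside the 5 highest mean levels their higher group averaged 5 FPKM or more. The 8 at each end also had a name or domain and groups that did not overlap. For these, the lack of overlap was set by the choice. Others are said to be chosen after their values were seen. Members and lists were chosen with earlier results of these data known. Alternatives covered the pseudocount, the filter, the scaling, the model, the table of origin and each library left out; the authors' offset and the comparison of control with weighted changes were added after seeing the data.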

Additional observations from a re-analysis of the deposited data

Results flagged for a closer look

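The change between the collections was compared with the same change in weighted stems, in one limma fit of all 12 libraries. It differed, at an adjusted p under 0.05, for 2805 of 5881 genes (47.7%), and for 117 of the 239 named genes (49.0%). The authors had selected the deposited genes for a difference between weighted and control stems at 1 of the 2 times, in these same libraries, so such differences are built into the selection and are given as values only. The values below are the change in control stems minus the change in weighted stems.

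In 3 named genes the change was called in opposite directions. The ACC oxidase gene Solyc02g036350.3 changed by 2.24 in control stems and -3.08 in weighted stems, a difference of 5.32 (SE 0.53, limma adjusted p = 0.00021). The caffeoyl-CoA O-methyltransferase gene Solyc04g063210.3 changed by -1.74 in control stems and 0.68 in weighted stems, a difference of -2.42. Solyc01g110920.4, of the SAUR list, differed by 1.27.

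Among genes that rose in control stems, the AP2/ERF gene Solyc01g065980.4 differed by 2.73 and Snakin-2 (Solyc01g150176.1) by 2.63. The expansin-like gene Solyc08g061060.3 differed by 2.40 and the peroxidase gene Solyc03g006700.3 by 2.24. The changes of these genes in weighted stems were 2.82, 0.18, 0.40 and 0.69, in that order. The chlorophyll a-b binding protein gene Solyc02g070990.1 rose less in control stems, by -2.40. Among genes that fell, GAST1 (Solyc02g089350.3), Solyc01g110900.1 and ACC oxidase 4 (Solyc07g049550.3) fell less in control than in weighted stems, by 2.86, 2.84 and 2.10.

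The fall was larger in control stems for the P450 gene Solyc04g007940.4 (-2.92), the potato inhibitor I genes Solyc09g084460.3 (-2.72) and Solyc09g084450.3 (-2.06), the pectinesterase gene Solyc02g080200.4 (-2.62), the chlorophyll a-b binding protein gene Solyc06g069730.3 (-2.50), the Bet v 1 gene Solyc04g007760.3 (-2.10) and CPT2 (Solyc08g005655.1, -2.09). The protochlorophyllide oxidoreductase gene Solyc12g013710.2 fell in control stems and had a positive change in weighted stems, a difference of -2.29.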

How the results depend on the processing

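The 3835 genes called ranged from 3311 to 4121 over pseudocounts, filters, scalings and models, and from 3269 to 3850 when 1 of the 6 libraries was left out; those with a difference of at least 1 ranged from 1891 to 2088 on leaving out a library. Of the 239 named genes 228 to 238, and of the 1121 called list members 968 to 1140, were called with 1 library left out. No named gene reversed under any alternative, and 15 lost their call under at least 1 of them. With genes of the 10 day table only, which leaves fewer genes to test, 820 were called (468 higher and 352 lower), 376 of them by at least 1, with 46 named genes and 191 list members. Higher genes were 44.3% of those called, 38.8% with equal totals, 38.3% with the authors' offset and 50.7% with quantile scaling. At 5 FPKM or more, 18 of the tubulin and kinesin genes fell in place of 37. Replicate numbers did not pair the libraries: deviations of same-numbered libraries correlated at -0.18, -0.15 and -0.11. With the replicate number as a replicate block 3439 genes were called, 1985 of them by at least 1, with 235 named genes and 1034 list members, and 4370 in weighted stems, against 4557 without the block.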
